A study of Mus musculus with 6 samples.

Results

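The genes of the mouse major histocompatibility complex (MHC, called H2 in the mouse) and of antigen presentation were followed in 6 bulk RNA-seq libraries of the retinal pigment epithelium (RPE). The RPE is the pigmented sheet behind the retina that supports the photoreceptors and takes up their shed outer segment tips. Members were all genes of the deposited count table whose symbol starts with H2-, plus 11 genes listed by symbol: B2m, Tap1, Tap2, Tapbp, Psmb8, Psmb9, Psmb10, Nlrc5, Ciita, Cd74 and Erap1. The rule used symbols only and no measured value. It found 56 genes of 54532, of which 32 were class I, 14 were class II (Cd74 and Ciita included), 9 were class I accessory genes and 1, H2-Ke6, belonged to neither class.

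The 6 libraries came from 3 wild-type (WT) mice of the Jackson strain 129S1/SvlmJ and 3 Abca4-/- mice of the Jackson line Abca4tm1Ght/J, here called Abca4KO. Abca4 encodes a transporter that clears retinoids from photoreceptor discs and is also made in the RPE. Both groups carried the Leu450 form of Rpe65, lived in 12-h cyclic light on a standard diet and were sampled 5 h after light onset, 1 mouse per library. The genotype and the mouse line change together, so an effect of the allele and an effect of the line, including any difference in the H2 region itself, cannot be told apart. The sources used here do not give the age of the mice.

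MHC class I molecules are made by nearly all nucleated cells. A polymorphic heavy chain pairs with beta-2-microglobulin (B2m) and shows peptides from inside the cell to CD8 T cells. The peptides are cut by the proteasome, in which the inducible subunits Psmb8, Psmb9 and Psmb10 can replace the constitutive ones, are pumped into the endoplasmic reticulum by Tap1 and Tap2, trimmed by Erap1 and loaded with the help of tapasin (Tapbp). Class II molecules are made mainly by dendritic cells, macrophages and B cells, are assembled on the invariant chain (Cd74) and show peptides from endosomes to CD4 T cells. Nlrc5 and Ciita are the master transcriptional activators of class I and class II genes respectively, and interferon-gamma is a strong inducer of both. The healthy RPE is known for a low class II level and forms part of the barrier that limits immune reactions in the eye.

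Abca4 itself held 932 to 968 CPM in the WT libraries and 32.6 to 39.1 CPM in the Abca4KO libraries, where CPM is a gene's count relative to the TMM-scaled total of its library. Each library therefore matched its label. Total counts lay between 17047286 and 19841307, and 3 counts corresponded to 0.152 to 0.174 CPM. The 18 RPE markers listed, Rpe65 among them, were all tested and summed to between 38040 and 49490 CPM, lowest in WT replicate 2 (WT 2). WT 2 stood apart from the other 5 libraries in nearly every member described here. The classes of members and the main named members are therefore compared with it and without it. Other gene lists are mostly compared with it included.

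No MHC or antigen presentation gene passed the test between Abca4KO and WT, and the spread within the WT group exceeded the difference between the group means in most of them. Of the 56 members, 36 had enough counts to be tested, and edgeR's quasi-likelihood test called 0 of the 36 at an adjusted p under 0.05. Over all 17340 genes tested, 8 passed (0.0461%). At an unadjusted p under 0.05 the members again gave 0, against 7.02% of all genes tested (546 higher and 671 lower in Abca4KO). DESeq2 and limma-voom with sample weights also called 0 members. The lowest adjusted p of a member was 0.738, that of Erap1.

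Most members were highest in 1 WT mouse. In 34 of the 36 tested members the highest CPM was that of WT 2, which was the highest library for 24.9% of all genes tested. The 2 exceptions were H2-M5 and the pseudogene H2-M6-ps. The level in WT 2 was 5.64 times the mean of the other 5 libraries in the median member, with a range from 0.737 for H2-M5 to 15.6 for Tap1. This median was 4.17 in class I, 6.29 in class II and 5.58 in the accessory genes, and 1.00 over all genes tested. At the other end, WT 3 was the lowest library in 31 of the 36. The order WT 2, Abca4KO 2, Abca4KO 3, Abca4KO 1, WT 1, WT 3, from high to low, held in 21 of the 36 members and in 250 of the 17340 genes tested. The WT group thus held both the highest and the lowest libraries, and the libraries of the genotypes overlapped in all 36 members, whereas they did not overlap in 12.8% of all genes tested.

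**Figure D1:**
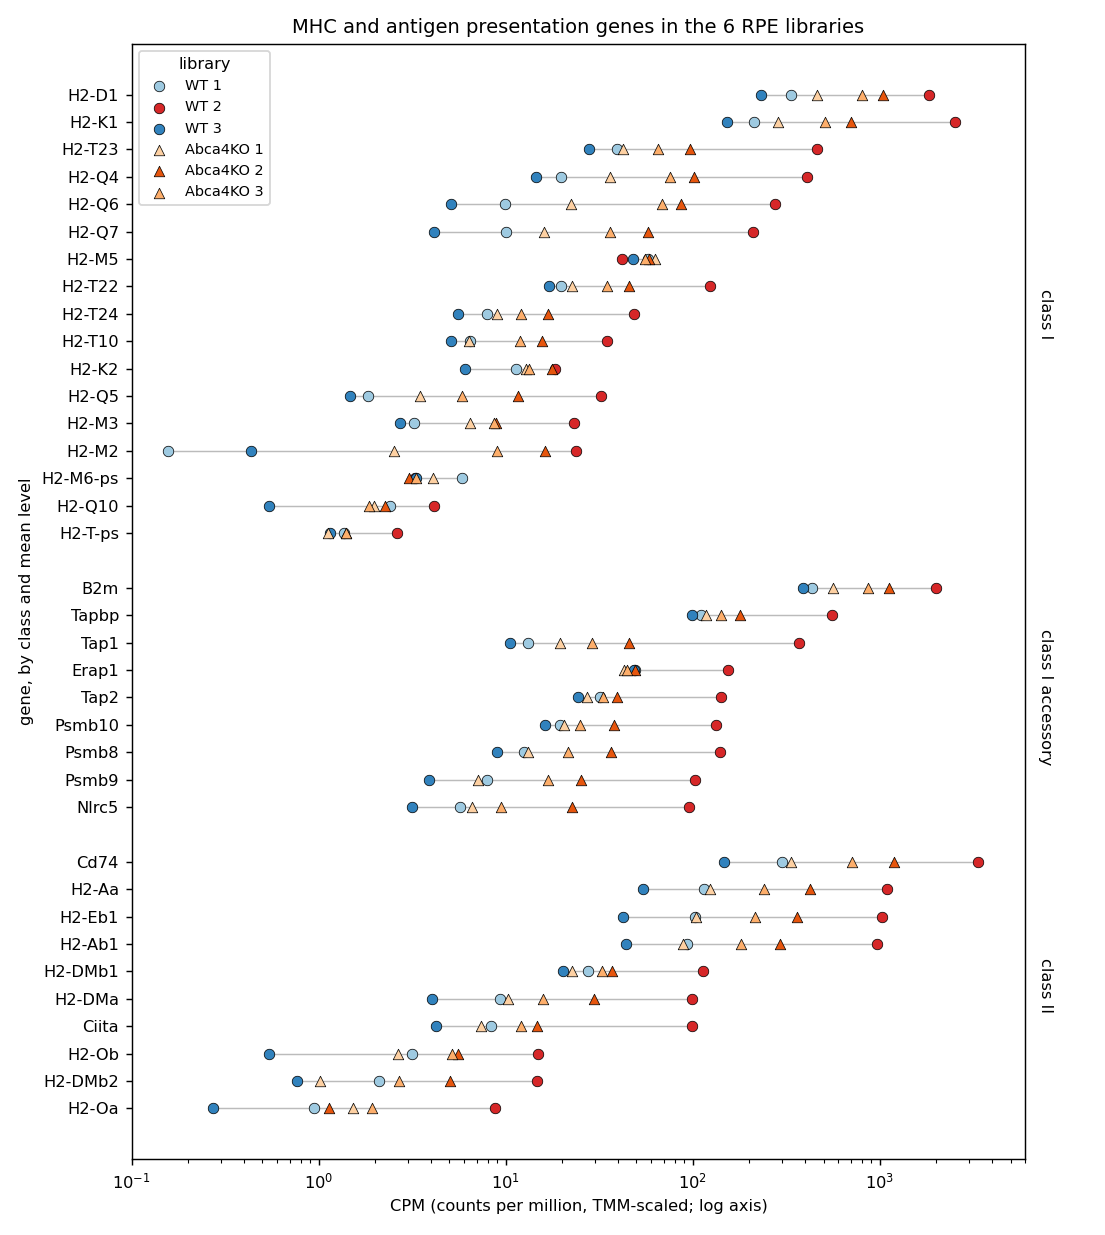
CPM (log axis) of the 36 tested members in each of the 6 libraries, grouped as class I, class I accessory and class II and ordered by mean level; circles are WT and triangles Abca4KO, and the grey line spans the 6 libraries. The red circle of WT 2 lies at the right end of 34 rows, and the triangles lie between it and the other WT circles in most rows.

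The direction of the genotype difference depended on whether WT 2 was included. With all 6 libraries the log2 fold change (Abca4KO minus WT) was negative in 33 of the 36 members, with a median of -0.79, against -0.01 over all genes tested. The median was -0.45 in the 17 class I genes, -0.89 in the 10 class II genes and -1.02 in the 9 accessory genes. Without WT 2 it was positive in 34 of the 36, and the medians were 1.02, 1.38 and 1.05. Without WT 2, 0 members passed the adjusted threshold, where 0.0617% of all genes did, and the lowest adjusted p was 0.2003. At an unadjusted p under 0.05, 26 of the 36 members were higher in Abca4KO in that fit (13 class I, 6 class II and 7 accessory) and 0 were lower, beside 6.11% of all genes that were higher. Some of the other lists shared this. In them, 15 of 15 endothelial markers, 10 of 20 macrophage and microglia markers and 10 of 17 class II pathway genes were higher. The counts were 10 of 40 interferon-stimulated genes and 4 of 19 T and NK cell markers. In these lists 0 were lower. Other lists did not share it. Of the 18 RPE markers 4 were higher and 5 lower, and of 28 further class I peptide supply genes 2 were higher and 1 lower. Of the 14 rod markers without Abca4, 0 were higher and 0 lower. All 3 Abca4KO libraries lay above both WT 1 and WT 3 in 23 of the 36 members, against 14.0% of all genes tested. WT 2 was set aside after its values were seen, as the highest library in 34 of the 36 members. Leaving it out raises the fold changes of those members by construction. It was highest for 24.9% of all genes tested, so the shares over all genes are not a like background. The members also varied together and are not independent. Without WT 2 the comparison rests on 2 WT mice, and fewer cells of a type and less RNA per cell cannot be told apart in bulk tissue.

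**Figure D2:**
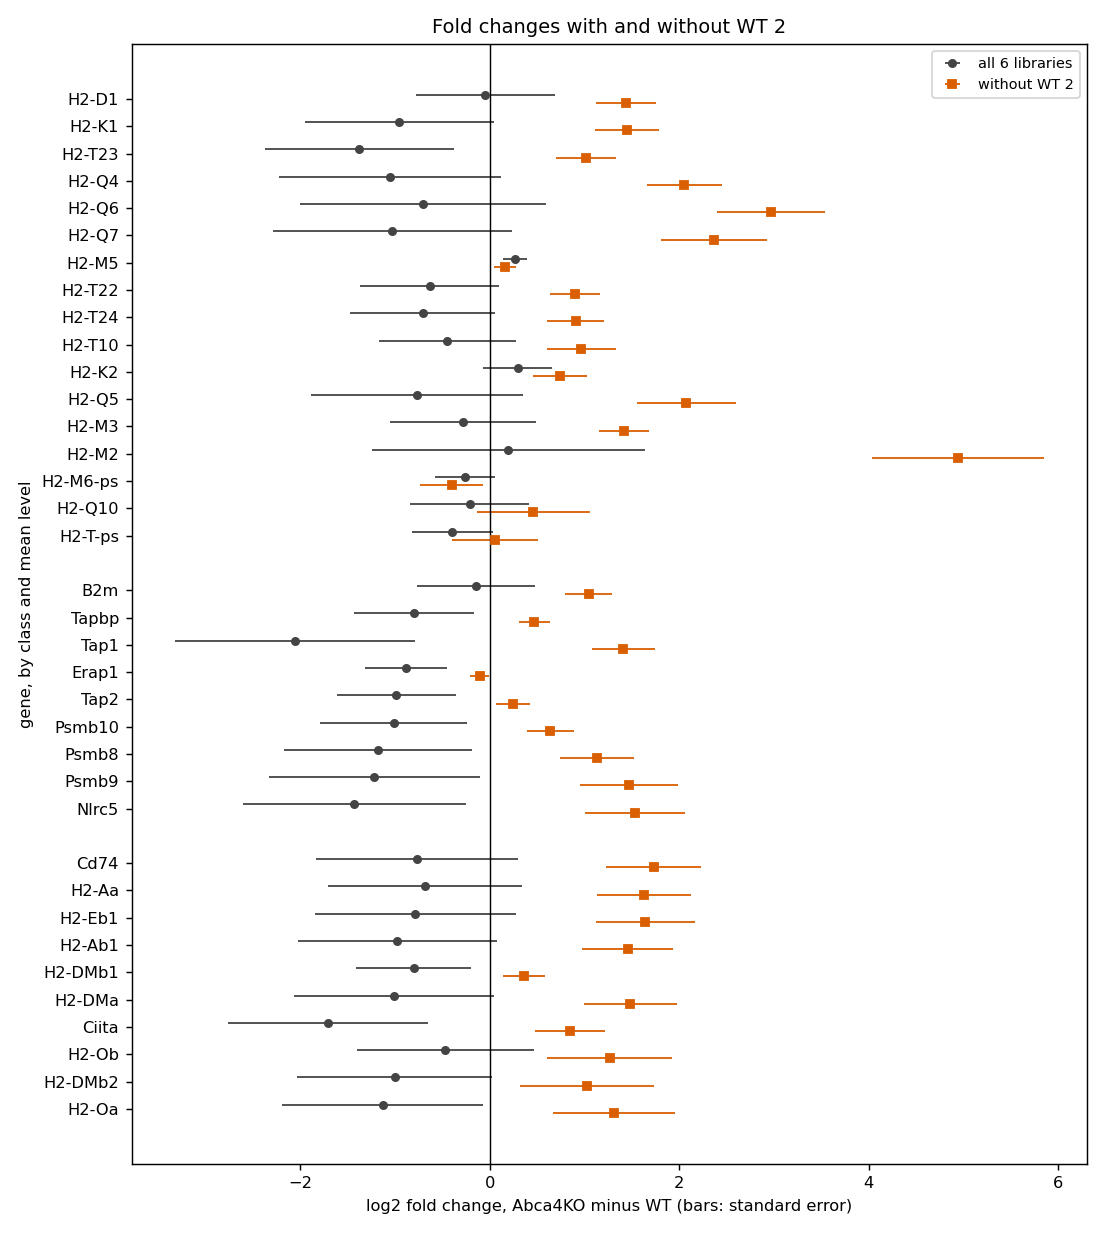
Log2 fold change (Abca4KO minus WT) with its SE for the 36 tested members, fitted with all 6 libraries and without WT 2. With all libraries 33 of the 36 points lie left of 0, and without WT 2 34 of the 36 lie right of it.

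The classical class I heavy chains H2-K1 and H2-D1 present peptides to CD8 T cells and were the most abundant class I genes per length of transcript, with means of 280.2 and 303.8 CPM per kb. H2-K1 (ENSMUSG00000061232, mm10 chromosome 17, 33996017 to 34000333, minus strand) held 211.5, 2528 and 152 CPM in WT 1, 2 and 3 and 284, 701 and 508 CPM in Abca4KO 1, 2 and 3. WT 2 was 3.61 times the next library, and the 3 Abca4KO libraries lay above the other 2 WT libraries. The group means were 964 ± 1355 CPM for WT and 497.5 ± 209 CPM for Abca4KO (SD, 3 mice each). The log2 fold change was -0.95 (SE 1.00, edgeR adjusted p = 0.884), and without WT 2 it was 1.45 (SE 0.34, adjusted p = 0.257).

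H2-D1 (ENSMUSG00000073411, chromosome 17, 35262730 to 35267499, plus strand) held 336, 1821 and 232 CPM in the WT libraries and 464, 1041 and 807 CPM in the Abca4KO libraries. The order of the 6 libraries was that of H2-K1, but WT 2 was only 1.75 times the next library. The means, 796 ± 889 CPM for WT and 771 ± 290 CPM for Abca4KO (SD, 3 mice each), were nearly equal. Its log2 fold change was -0.05 (SE 0.74, adjusted p = 0.993), and 1.44 (SE 0.32, adjusted p = 0.240) without WT 2. The transcripts of H2-D1 and H2-K1 are 88.4% to 91.3% identical over their best alignment, so reads shared by both make each count uncertain.

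The promoters of these genes are shown because class I genes share interferon and NF-kappa B elements there. RefSeq windows of 250 bases before to 50 bases after the gene start (GRCm38.p6) were found for 26 of the 36 tested members. The motif AANNGAAA, the core bound by interferon regulatory factors, occurred on either strand in 11 of the 12 class I genes with a window, and in 24.2% of all 27025 promoters. It occurred in 2 of 7 class II genes and 2 of 7 accessory genes. GGGNNTTCC, a form of the kappa B site called enhancer A in class I promoters, occurred in 6 of the 12 class I genes, 2 of the 7 class II genes, 0 of the 7 accessory genes and 5.72% of all promoters. The following lines give 68 bases around the AANNGAAA match of 7 class I genes and B2m, on the gene's strand, and only the 29 bases from the first to the last capital for H2-D1, since these lie inside the first exon of a longer annotated H2-D1 transcript. Capitals mark AANNGAAA, GAAANNGAA (the core of the interferon-stimulated response element, which can overlap it) and GGGNNTTCC on either strand.
H2-K1, chr17:34000400-34000467, minus strand: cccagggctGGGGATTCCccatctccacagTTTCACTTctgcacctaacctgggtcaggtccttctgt
H2-D1, chr17:35262923-35262951, plus strand: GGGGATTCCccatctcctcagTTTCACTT
H2-Q4, chr17:35379434-35379501, plus strand: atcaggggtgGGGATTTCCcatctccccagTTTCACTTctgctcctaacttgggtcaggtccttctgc
H2-Q6, chr17:35424668-35424735, plus strand: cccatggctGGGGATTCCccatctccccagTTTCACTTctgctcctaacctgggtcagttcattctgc
H2-Q7, chr17:35439012-35439079, plus strand: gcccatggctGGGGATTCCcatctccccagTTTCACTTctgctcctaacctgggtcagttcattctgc
H2-M2, chr17:37483659-37483726, minus strand: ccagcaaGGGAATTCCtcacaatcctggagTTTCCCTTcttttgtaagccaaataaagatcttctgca
H2-M3, chr17:37270103-37270170, plus strand: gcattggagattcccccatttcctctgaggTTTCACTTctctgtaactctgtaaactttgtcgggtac
H2-T22, chr17:36042896-36042963, minus strand: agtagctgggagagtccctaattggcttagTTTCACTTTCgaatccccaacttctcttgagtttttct
B2m, chr2:122147520-122147587, plus strand: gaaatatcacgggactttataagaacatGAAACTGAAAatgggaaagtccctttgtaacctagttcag

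The H2-K1 window and the same 68 bases of H2-D1 are identical at 66 positions, and H2-Q6 matches H2-K1 at 62. H2-Q4 matches H2-K1 at 60 and H2-Q7 at 53, compared without gaps. These class I windows are thus not independent of each other, and the shares over all promoters are not a like background for the class I motif counts. In H2-K1, H2-D1, H2-Q4, H2-Q6, H2-Q7 and H2-M2 both capitalised elements stand in the same order, the kappa B form upstream. A match of letters is a description and not a measured binding site.

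The 1 class I gene whose window held neither AANNGAAA, GAAANNGAA, GGGNNTTCC nor ATTGG was H2-M5, a non-classical class I gene. Its 250 bases before the start are shown in full, all in lower case, as the exception to the class I motif count. Among the other tested members with a window, Psmb8, Psmb10 and H2-DMa held none of the 4 motifs either, and WT 2 was 7.52, 5.58 and 7.17 times the mean of the other 5 libraries in them. Tap1, at 15.6 times, lacked AANNGAAA. The Psmb8 window (34197945 to 34198194) lies inside the deposited gene (34197721 to 34201454). The H2-DMa window (34122582 to 34122831) lies far upstream of the deposited gene start at 34135182. For both, the lack of a motif does not describe the bases before the deposited start. A link between the motifs and the level in WT 2 was not tested.
H2-M5, chr17:36989534-36989783, minus strand: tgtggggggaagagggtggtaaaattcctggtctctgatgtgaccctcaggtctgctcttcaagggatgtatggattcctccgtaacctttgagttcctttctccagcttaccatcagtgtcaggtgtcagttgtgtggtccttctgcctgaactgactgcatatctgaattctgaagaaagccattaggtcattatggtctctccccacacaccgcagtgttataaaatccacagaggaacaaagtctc

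H2-M5 held 57.9, 41.6 and 47.6 CPM in WT 1, 2 and 3 and 63.1, 58.5 and 55.3 CPM in Abca4KO 1, 2 and 3. The gene thus varied little, and WT 2, the highest library for the other named class I genes, was the lowest here. The group means were 49.0 ± 8.21 CPM for WT and 59.0 ± 3.92 CPM for Abca4KO (SD, 3 mice each), and the log2 fold change was 0.27 (SE 0.13, adjusted p = 0.738). That of the fit without WT 2 was 0.16 (SE 0.11, adjusted p = 0.673).

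The other non-classical class I genes named by level followed H2-K1. H2-T23, which encodes Qa-1, the ligand of the NKG2A receptor of natural killer cells, held 39.5, 464 and 27.8 CPM in the WT libraries and 42.6, 96.4 and 65.5 CPM in the Abca4KO libraries. H2-Q7, which encodes Qa-2, held 10, 210 and 4.14 CPM in WT and 15.98, 57.8 and 36.2 CPM in Abca4KO. In both genes WT 2 was highest and every Abca4KO library exceeded WT 1 and WT 3.

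H2-Q4 held 19.7, 410 and 14.5 CPM in the WT libraries and 36.2, 102 and 75.8 CPM in the Abca4KO libraries. H2-Q6 held 9.95, 273.5 and 5.12 CPM in WT and 22.3, 86.0 and 68.9 CPM in Abca4KO. H2-T22, a ligand of some gamma-delta T cell receptors, held 19.7, 123 and 16.98 CPM in WT and 22.6, 45.4 and 34.8 CPM in Abca4KO. The library order was again the same in all 3 genes. Without WT 2 the log2 fold change was 2.97 in H2-Q6 (SE 0.57, adjusted p = 0.2003), 2.37 in H2-Q7, 2.06 in H2-Q4 and 0.90 in H2-T22. With all libraries the values for H2-Q6, H2-Q7, H2-Q4, H2-T23 and H2-T22 were -0.70, -1.03, -1.05, -1.38 and -0.64, with adjusted p between 0.830 and 0.942. The closest transcripts of H2-Q4 and H2-Q6 are each other (up to 94.1% identical), that of H2-Q7 is H2-Q10 (94.9%) and that of H2-T22 is H2-T10 (97.4%), so that the split of reads within these pairs is uncertain.

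The other 9 tested class I genes were less abundant, with means below those of H2-T22 in CPM. H2-M2 was listed with 3 raw counts in WT 1, at 0.157 CPM, and with 0.436 CPM in WT 3, 23.6 CPM in WT 2 and 2.54, 16.2 and 9.01 CPM in Abca4KO 1, 2 and 3. It was thus near the counting floor in 2 WT mice and well above it in the other 4 mice. Its log2 fold change without WT 2, 4.94 (SE 0.91, adjusted p = 0.2003), was the highest of the 36 members, but rests on few WT counts and depends on the prior count. The pseudogenes H2-K2, with 6.04 to 18.2 CPM, and H2-T-ps, with 1.12 to 2.63 CPM, varied least among those highest in WT 2. H2-M6-ps was highest in WT 1, at 5.86 CPM, against 3.04 to 4.06 CPM elsewhere. The remaining 5, H2-T24, H2-T10, H2-Q5, H2-M3 and H2-Q10, were highest in WT 2 with 4.13 to 48.4 CPM. Of these, H2-T10 and H2-Q5 are annotated as polymorphic pseudogenes.

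The accessory genes of the class I pathway were all highest in WT 2, from 2.95 times the mean of the other 5 libraries in B2m to 10.01 times in Nlrc5 and 15.6 times in Tap1. B2m (ENSMUSG00000060802, chromosome 2, 122147686 to 122153083) had the highest level per length of any member, with a mean of 1038 CPM per kb. It held 434, 1986 and 388 CPM in the WT libraries and 564, 1119 and 864 CPM in the Abca4KO libraries. The order of the libraries was that of H2-K1 and H2-D1. Means were 936 ± 910 CPM for WT and 849 ± 278 CPM for Abca4KO (SD, 3 mice each), and the log2 fold change was -0.14 (SE 0.62, adjusted p = 0.980), or 1.05 (SE 0.25, adjusted p = 0.257) without WT 2.

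Tap1 (chromosome 17, 34187553 to 34197225) held 13.1, 368 and 10.5 CPM in WT 1, 2 and 3 and 19.4, 45.8 and 29.1 CPM in Abca4KO 1, 2 and 3. WT 2 was 8.05 times the next library, the highest such ratio of the 36 members. Its partner Tap2 (chromosome 17, 34203527 to 34216321) held 31.9, 142 and 24.2 CPM in WT and 27.3, 39.3 and 33.3 CPM in Abca4KO, so the 5 libraries other than WT 2 lay close together. The log2 fold change of Tap1 was -2.06 (SE 1.27, adjusted p = 0.799) and that of Tap2 was -0.99 (SE 0.62, adjusted p = 0.807). Without WT 2 they were 1.41 (SE 0.33, adjusted p = 0.257) and 0.25 (SE 0.18, adjusted p = 0.686).

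Psmb8, Psmb9 and Psmb10, the inducible proteasome subunits, all had WT 2 highest, Abca4KO 2 next and WT 3 lowest. Psmb8 held 12.6, 139 and 8.98 CPM in the WT libraries and 13.1, 36.4 and 21.6 CPM in the Abca4KO libraries. Psmb9 held 7.91, 103 and 3.87 CPM in WT and 7.10, 25.3 and 16.7 CPM in Abca4KO, and Psmb10 held 19.5, 133 and 16.2 CPM in WT and 20.6, 37.8 and 25.1 CPM in Abca4KO. Abca4KO 1 and WT 1 lay close together in all 3 genes. The log2 fold changes with all libraries were -1.18, -1.22 and -1.01 (SE 0.99, 1.12 and 0.77, adjusted p 0.843 to 0.866). Psmb9 and Tap1 lie head to head and overlap in the annotation (3053 and 9074 counts over the 6 libraries), so without stated strand use some of their reads are uncertain.

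Tapbp, the loading chaperone tapasin, held 110, 552 and 99.5 CPM in the WT libraries and 118, 178 and 141 CPM in the Abca4KO libraries. Erap1, the trimming peptidase, held 48.8, 153 and 48.7 CPM in WT and 42.6, 49.1 and 44.2 CPM in Abca4KO. Erap1 was therefore high in WT 2 and nearly level in the other 5 libraries, and it was the 1 accessory gene whose log2 fold change stayed negative without WT 2, at -0.10 (SE 0.10, adjusted p = 0.774), after -0.88 (SE 0.43) with all libraries. Tapbp went from -0.80 (SE 0.63, adjusted p = 0.848) to 0.47 (SE 0.16, adjusted p = 0.357). Erap1 overlaps Cast (6396 counts) on the opposite strand and Tapbp overlaps Zbtb22 (2727 counts), which makes both counts uncertain.

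The class I activator Nlrc5 held 5.71, 94.9 and 3.16 CPM in the WT libraries and 6.60, 22.5 and 9.41 CPM in the Abca4KO libraries. WT 2 was 4.22 times the next library, and the order of the 6 was again that of H2-K1. Its log2 fold change was -1.43 (SE 1.18, adjusted p = 0.856), and 1.53 (SE 0.53, adjusted p = 0.359) without WT 2.

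Class II genes behaved alike, and the invariant chain led them in level. Cd74 held 301.5, 3343 and 147 CPM in WT 1, 2 and 3 and 336, 1186 and 707 CPM in Abca4KO 1, 2 and 3. WT 2 was 2.82 times the next library, and WT 1 and Abca4KO 1 lay close together. The means were 1264 ± 1802 CPM for WT and 743 ± 426 CPM for Abca4KO (SD, 3 mice each). The log2 fold change was -0.77 (SE 1.07, adjusted p = 0.921), and 1.73 (SE 0.50, adjusted p = 0.309) without WT 2.

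The class II chains themselves, H2-Aa and H2-Ab1 (the A molecule) and H2-Eb1 (the beta chain of the E molecule), lie next to each other on chromosome 17 between 34263209 and 34316199. H2-Aa held 115, 1093 and 54.5 CPM in WT and 124, 422 and 241 CPM in Abca4KO. H2-Ab1 held 93.2, 970 and 43.7 CPM in WT and 88.8, 294 and 181 CPM in Abca4KO. In these chains WT 3 was lowest, and WT 1 and Abca4KO 1 were close to each other, with H2-Ab1 slightly higher in WT 1. H2-Eb1 held 102, 1024 and 42.5 CPM in WT and 104, 360 and 215 CPM in Abca4KO. The log2 fold changes of H2-Aa, H2-Ab1 and H2-Eb1 were -0.68, -0.97 and -0.78 (SE 1.02 to 1.06, adjusted p 0.887 to 0.927), and 1.63, 1.46 and 1.64 (adjusted p 0.325 to 0.351) without WT 2. The alpha chain of the E molecule, annotated as the pseudogene H2-Ea-ps, had no count in any library.

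Of the 7 class II genes with a RefSeq window, 6 held ATTGG, the inverted CCAAT form of the Y box that NF-Y binds, on either strand, as did 10 of the 12 class I genes, 4 of the 7 accessory genes and 37.9% of all promoters. The exception, H2-DMa, has its RefSeq window from 34122582 to 34122831, far upstream of the deposited gene start at 34135182, and the H2-DMb1 window lies inside the first exon of an annotated transcript. The 60 bases around it are shown for 3 of them, the alpha chain of the A molecule, the beta chain of the E molecule and the beta chain of the DO molecule, with ATTGG in capitals. H2-Ab1 is named without a sequence.
H2-Aa, chr17:34287857-34287916, minus strand: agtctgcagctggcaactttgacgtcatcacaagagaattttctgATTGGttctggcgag
H2-Eb1, chr17:34305763-34305822, plus strand: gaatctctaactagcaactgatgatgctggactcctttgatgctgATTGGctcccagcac
H2-Ob, chr17:34238803-34238862, plus strand: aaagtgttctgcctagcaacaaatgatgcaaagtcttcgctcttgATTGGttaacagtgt

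H2-DMa and H2-DMb1 encode the DM molecule, which exchanges the invariant chain fragment for peptide in endosomes. H2-DMa held 9.27, 99.2 and 4.03 CPM in the WT libraries and 10.3, 29.7 and 15.9 CPM in the Abca4KO libraries. H2-DMb1 held 27.7, 113 and 20.3 CPM in WT and 22.6, 37.0 and 32.8 CPM in Abca4KO. Both were highest in WT 2 and lowest in WT 3, and H2-DMb1 spread less over the other libraries than H2-DMa. The log2 fold changes were -1.01 (SE 1.06, adjusted p = 0.884) and -0.80 (SE 0.61, adjusted p = 0.842), and 1.48 and 0.36 without WT 2 (adjusted p = 0.348 and 0.614). H2-DMb1 is 95.8% identical to H2-DMb2, a less abundant copy with 0.762 to 14.7 CPM, so their split is uncertain. H2-Oa and H2-Ob, which encode the DO molecule that restrains DM, stayed under 15 CPM, with 8.81 and 14.8 CPM in WT 2 and at most 5.57 CPM elsewhere.

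Ciita, the class II activator, held 8.38, 99.1 and 4.25 CPM in WT 1, 2 and 3 and 7.41, 14.7 and 12.1 CPM in Abca4KO 1, 2 and 3. WT 2 was 6.74 times the next library, the second-highest such ratio of the 36 members after that of Tap1. The log2 fold change was -1.71 (SE 1.06, adjusted p = 0.800), and 0.85 (SE 0.37, adjusted p = 0.465) without WT 2. Ciita overlaps Dexi (2309 counts) on the opposite strand, and its count is uncertain to that extent.

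The 20 members that were not tested had few or no counts. No count was recorded in any library for 13 of them, which were H2-M1, H2-M9, H2-M11, 6 genes and pseudogenes of the H2-M10 group, H2-Q3, H2-Ea-ps, H2-Pa and H2-Pb. The other 7 had few counts summed over the 6 libraries, namely 66 for H2-Eb2, 28 for H2-Q1, 15 for H2-T3, 12 for H2-Ke6, 11 for H2-Bl, 8 for H2-M10.2 and 2 for H2-Q2. WT 2 held 44 of the 66 counts of H2-Eb2 and all 11 of H2-Bl.

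Summed over each class, the CPM of class I was 745 in WT 1, 6063 in WT 2 and 527 in WT 3, and 998, 2282 and 1720 in Abca4KO 1, 2 and 3. Class II summed to 664, 6783 and 318 CPM in WT and to 698, 2356 and 1414 CPM in Abca4KO. The accessory genes summed to 684, 3672 and 603 CPM in WT and to 818, 1553 and 1184 CPM in Abca4KO. The order of the 6 libraries was the same in all 3 classes. Class II spanned the widest range.

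Ratios within a library, in CPM per kb, showed which members kept step with each other. H2-K1 over H2-D1 lay between 0.605 and 0.666 in 5 libraries and was 1.37 in WT 2. Tap1 over Tap2 was 0.285 and 0.299 in WT 1 and WT 3, 0.491 to 0.805 in the Abca4KO libraries and 1.80 in WT 2. In these 2 pairs WT 2 thus differed in proportion as well as in level. The summed inducible subunits Psmb8, Psmb9 and Psmb10 over the constitutive Psmb5, Psmb6 and Psmb7 gave 0.168 to 0.489 in 5 libraries and 1.77 in WT 2, while the constitutive sum stayed between 80.9 and 93.4 CPM per kb. The class II pair behaved otherwise. Cd74 over the sum of H2-Aa and H2-Ab1 lay between 1.80 and 2.10 in all 6 libraries, a 1.16-fold range, and H2-Aa over H2-Ab1 between 0.984 in WT 2 and 1.26 in Abca4KO 2, with the 3 Abca4KO libraries (1.16 to 1.26) above the 3 WT libraries (0.984 to 1.09). No test was made of these ratios.

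**Figure D3:**
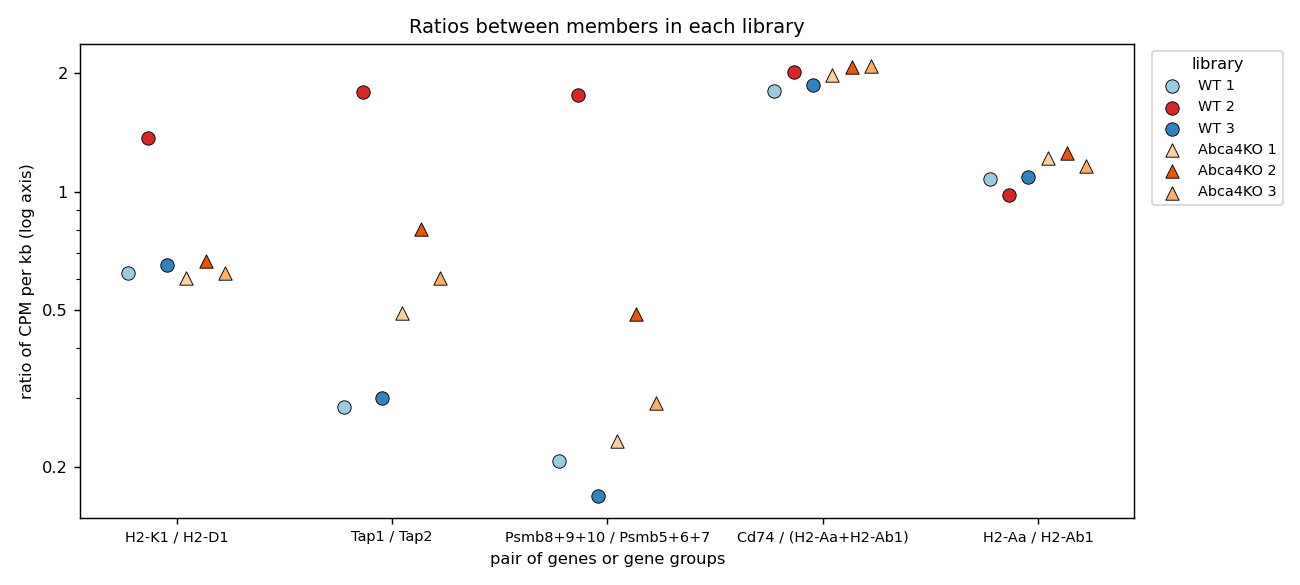
Ratios of members within each library, from CPM per kb of gene length (log axis), with 1 point per library. WT 2 stands above the other 5 libraries for H2-K1 over H2-D1, Tap1 over Tap2 and the inducible over the constitutive proteasome subunits, lies among them for Cd74 over H2-Aa plus H2-Ab1, and is lowest for H2-Aa over H2-Ab1.

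Of the regulators of class I and class II transcription listed, 25 of 27 were tested and 0 passed the threshold (0 at an unadjusted p under 0.05). The median regulator in WT 2 was 1.37 times the mean of the other 5 libraries, and the receptor and kinase genes Jak1, Jak2, Ifngr1, Ifngr2, Ifnar1 and Ifnar2 were 1.21 to 1.52 times that mean. Jak2 held 43.8, 60.9 and 47.5 CPM in WT and 43.6, 46.0 and 40.7 CPM in Abca4KO. Some transcription factor genes stood higher. Irf1, an interferon regulatory factor gene, held 214 CPM in WT 2 against 17.8 to 43.4 CPM elsewhere. Stat2, which encodes a transcription factor of the type I interferon response, held 165 against 29.0 to 42.9 CPM. The subunits of the RFX and NF-Y complexes, which sit on the promoters of both classes, did not share this: Rfx5 held 20.4 CPM in WT 2 and 11.8 to 19.8 CPM elsewhere, and Nfyc 44.1 and 38.6 to 46.3 CPM. Ifng, the gene of interferon-gamma, was too sparse to be tested, with 64 of its 74 counts in WT 2. Ifnb1, not tested either, had counts only in Abca4KO 1, at 0.102 CPM.

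Further steps of class I peptide supply were measured in 28 genes outside the members, all tested, with 0 past edgeR's threshold and a median log2 fold change of -0.03. Of the 28, 2 were lower in Abca4KO at an unadjusted p under 0.05, against 671 of the 17340 genes tested. Lnpep, an endosomal aminopeptidase, had the lowest p of them, with 97.7, 130 and 103 CPM in WT and 87.4, 84.3 and 84.7 CPM in Abca4KO (log2 fold change -0.37, SE 0.12, adjusted p = 0.618). In WT 2 the proteasome activator genes Psme1 and Psme2 and the tapasin-like Tapbpl, chosen after their values were seen, were 2.96, 2.59 and 4.73 times the mean of the other 5 libraries. The 14 alpha and constitutive beta subunits of the proteasome were 0.996 to 1.45 times that mean.

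Of the class II pathway outside the members, 17 genes were in the table and tested. None passed the threshold and the median log2 fold change was 0.06. At an unadjusted p under 0.05, 5 were higher in Abca4KO, against 546 of the 17340 genes tested. Ctss, the protease cathepsin S that removes the invariant chain, held 313, 585 and 214 CPM in WT and 645, 1349 and 983 CPM in Abca4KO. Unlike the members, Ctss had all Abca4KO libraries above all WT libraries, and its log2 fold change was 1.42 (SE 0.40, adjusted p = 0.616), or 1.91 (adjusted p = 0.131) without WT 2. Ctsl, cathepsin L, held 372, 341.5 and 381 CPM in WT and 449, 556 and 520 CPM in Abca4KO (log2 fold change 0.48, SE 0.10, adjusted p = 0.463). The tetraspanin genes Cd63 and Cd9 had log2 fold changes of 0.32 and 0.43 (adjusted p = 0.616 and 0.625).

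Other genes that interferons induce, and markers of other cells, also moved with WT 2 or with the order of the other libraries. All 40 interferon-stimulated genes were tested, with 0 past edgeR's threshold. Lower in Abca4KO at an unadjusted p under 0.05 were 2 of them, against 671 of the 17340 genes tested. Of the 40, 39 were highest in WT 2, where the 40 genes summed to 6676 CPM against 552 to 954 CPM elsewhere. Gbp3, a guanylate-binding protein gene, held 1037 CPM in WT 2 and 38.7 to 51.6 CPM in the other 5.

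Of the T and NK cell markers, 19 of 20 were tested and 0 passed the threshold. Lower in Abca4KO at an unadjusted p under 0.05 were 2 markers, against 671 of the 17340 genes tested. The markers were highest in WT 2 in 18 cases. They summed to 283 CPM in WT 2, 18.1 and 32.7 CPM in WT 3 and WT 1 and 29.4 to 66.2 CPM in Abca4KO, and no marker was at 0 in all libraries. Gzmb, a granule protease of cytotoxic cells, held 22.1 CPM in WT 2 and 0.203 to 0.628 CPM elsewhere. The 12 dendritic cell markers, 11 of them tested and 8 highest in WT 2, summed to 364 CPM in WT 2, 95.7 and 149 CPM in WT 3 and WT 1 and 164 to 287 CPM in Abca4KO. Much of this sum was Itgax, with 139 CPM in WT 2 and more, 186 CPM, in Abca4KO 2. Ccr2 added 108 CPM in WT 2 and 5.72 to 17.2 CPM elsewhere, so the rank of WT 2 in the sum leans on that gene. By mean log2 CPM, which weighs each marker alike, WT 2 (3.948) stood above Abca4KO 2 (2.756).

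The 20 macrophage and microglia markers were all tested, with 0 past edgeR's threshold. At an unadjusted p under 0.05, 3 were higher in Abca4KO, against 546 of the 17340 genes tested. Of these markers 10 were highest in Abca4KO 2 and 8 in WT 2, against 3019 and 4321 of all genes tested. The markers summed to 2841, 3777 and 2135 CPM in WT 1, 2 and 3 and to 3255, 5597 and 4333 CPM in Abca4KO 1, 2 and 3, none being at 0 in all libraries. Leaving WT 2 aside, these sums had the order of the members, with Abca4KO 2 highest and WT 3 lowest. Much of each sum was Lyz2, with 1660, 2002 and 1179 CPM in WT 1, 2 and 3 and 2110, 3937 and 2957 CPM in Abca4KO 1, 2 and 3. By mean log2 CPM, which weighs each marker alike, WT 2 (5.629) stood above Abca4KO 2 (5.563). By that measure WT 1 (4.836) also stood above Abca4KO 1 (4.795), so the order of the sums does not hold for the markers taken alike. The rod photoreceptor markers listed, 14 without the deleted gene Abca4, summed to 727.5, 1099 and 1224 CPM in WT 2, Abca4KO 2 and Abca4KO 3 and to 1746 to 3599 CPM in the other 3 libraries. The part of T and NK cells, dendritic cells, macrophages, rods and of the interferon-induced genes in the levels of the members was not tested.

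**Figure D4:**
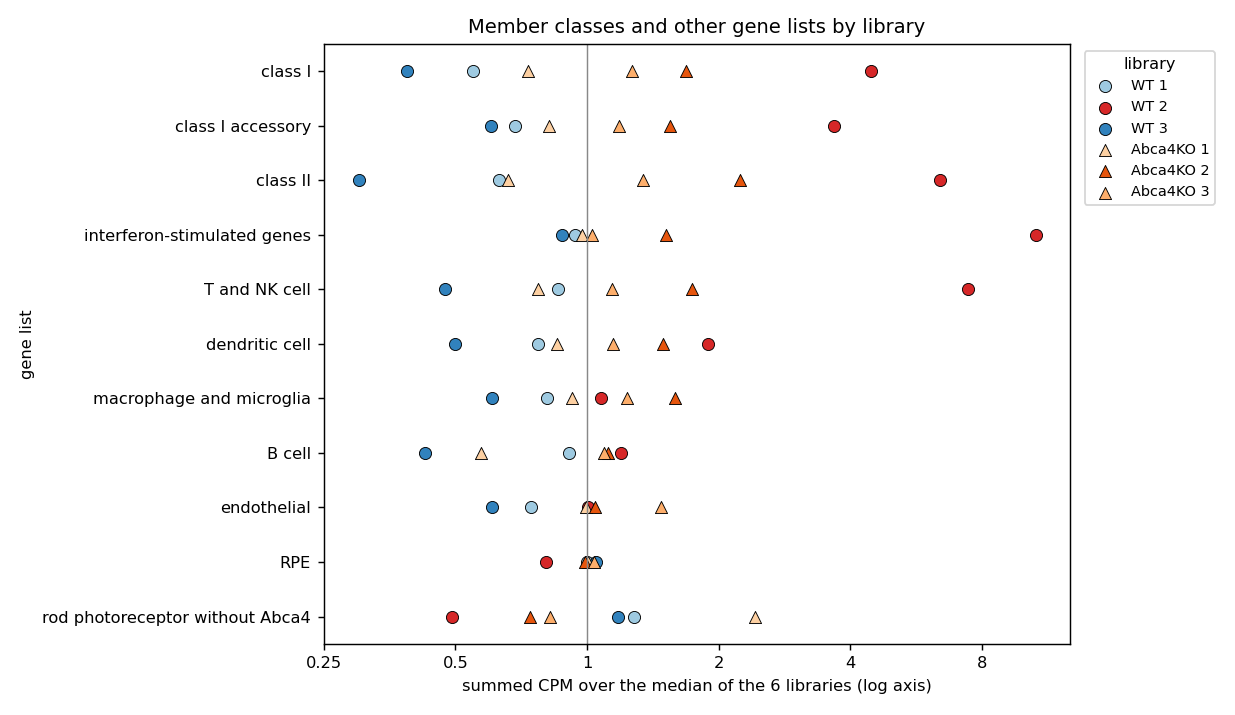
Summed CPM of the 3 member classes and of 8 other gene lists in each library, divided by the median of the 6 libraries (log axis), with circles for WT and triangles for Abca4KO. WT 2 lies to the right for the 3 member classes, the interferon-stimulated genes and the T and NK cell markers. Abca4KO 2 lies to the right for the macrophage and microglia markers, a sum of which Lyz2 is a large part.

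The WT 2 excess was not shared by most neighbours of the H2 genes. Between the outermost H2- genes of chromosome 17 (33974831 to 37483552), 270 other genes were annotated and 97 were tested. Their median level in WT 2 was 1.11 times the mean of the other 5 libraries, 36 of the 97 were highest in WT 2, and the median log2 fold change was 0.01, with 0 genes past edgeR's threshold and 2 higher in Abca4KO at an unadjusted p under 0.05.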

How the data were processed

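Each of the 6 libraries came from the RPE of a separate mouse, per the series design, and was made with the NEBNext Ultra RNA kit, per the labels' protocols. The authors deposited a table of whole-number read counts, not normalized, for 54532 Ensembl genes. The submitters' processing notes name STAR, HTSeq and mm10 but give no versions. The use of strand and the handling of reads that match several genes are not given in the sources used here, which makes the counts of near-identical H2 genes and overlapping genes uncertain.

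Genes were filtered with filterByExpr (minimum count 10) in edgeR 4.0.16 (R 4.3.3), which kept 17340. Libraries were scaled by TMM and compared with the 2-sided quasi-likelihood test, adjusted by Benjamini-Hochberg over all 17340 genes with a threshold of 0.05. Log2 fold changes are Abca4KO minus WT with a prior count of 0.125, and the SE was taken as the size of that value over the root of its F statistic. CPM uses TMM-scaled library sizes, and CPM per kb divides it by the gene length of the deposited table. DESeq2 1.42.0, limma-voom (limma 3.58.1) with sample weights and the other settings are given with the results that depend on them. Only the main edgeR fit was also run on simulated counts. These had the same dispersion for every gene and no outlying library, so that run does not bear on the calls of the members. All pairs of libraries of 1 genotype differed by more than counting noise (chi-square per degree of freedom at least 14.1). Reads carry no molecular identifiers, so the floor of 3 counts covers counting error only.

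Named with values per library were the 9 accessory genes, H2-K1, H2-D1, the 6 other class I genes with the highest mean CPM, H2-Aa, H2-Ab1, H2-Eb1, H2-DMa, H2-DMb1, Cd74 and Ciita, and up to 4 genes per list with the smallest p. Other genes with values (H2-M2, Stat2, Irf1, Rfx5, Ifng, Ifnb1, Psme1, Psme2, Psme3, Psme4, Tapbpl, Ccr2, the costimulatory genes and the low members) were picked with their values in view. The members and lists were chosen with earlier results of these data known. Sequences are from RefSeq (GRCm38.p6), and similar transcripts were searched in GENCODE M21 with blastn 2.17.0.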

Additional observations from a re-analysis of the deposited data

How the results depend on the processing

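In all 16 settings that could call members, RLE and upper-quartile size factors, scaling without the 100 most abundant genes, other filters on low counts, a robust dispersion, DESeq2, limma-voom with sample weights, the replicate block and each library left out among them, 0 members passed the threshold. DESeq2 gave 2 members no adjusted p. The count over all genes moved from 8 to 19 with no filter on low counts, 31 with limma-voom and 114 with DESeq2, and lay between 3 and 11 with 1 library left out (4 without WT 1, 3 without Abca4KO 2 or Abca4KO 3, 11 without WT 2).

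The direction of the members depended on the weight given to WT 2. limma-voom gave it a weight of 0.373, the lowest of the 6, and WT 1 the highest, 2.95. With limma-voom the median log2 fold change turned to 0.64 in class I, 0.82 in class II and 0.58 in the accessory genes, and the values of the named genes to 0.79 for B2m, 0.80 for Tap1, 0.19 for Tapbp, 0.58 for Psmb8, 0.83 for Psmb9, 0.24 for Psmb10, 0.69 for Nlrc5, 0.98 for H2-K1, 1.08 for H2-D1, 0.51 for H2-T23, 1.52 for H2-Q4, 2.30 for H2-Q6, 1.62 for H2-Q7, 0.58 for H2-T22, 0.97 for H2-Aa, 0.82 for H2-Ab1, 0.98 for H2-Eb1, 0.77 for H2-DMa, 0.084 for H2-DMb1, 1.08 for Cd74 and 0.32 for Ciita. With 1 library left out the medians ranged from -0.85 to 1.02 in class I, -1.49 to 1.38 in class II and -1.44 to 1.05 in the accessory genes, and the values from -0.50 to 1.05 for B2m, -2.59 to 1.41 for Tap1, -1.37 to 0.25 for Tap2, -1.17 to 0.47 for Tapbp, -1.67 to 1.14 for Psmb8, -1.74 to 1.47 for Psmb9, -1.44 to 0.64 for Psmb10, -2.10 to 1.53 for Nlrc5, -1.45 to 1.45 for H2-K1, -0.47 to 1.44 for H2-D1, -1.87 to 1.02 for H2-T23, -1.57 to 2.06 for H2-Q4, -1.25 to 2.97 for H2-Q6, -1.57 to 2.37 for H2-Q7, -1.04 to 0.90 for H2-T22, -1.19 to 1.63 for H2-Aa, -1.49 to 1.46 for H2-Ab1, -1.30 to 1.64 for H2-Eb1, -1.53 to 1.48 for H2-DMa, -1.18 to 0.36 for H2-DMb1, -1.28 to 1.73 for Cd74 and -2.22 to 0.85 for Ciita. Each highest value is the one without WT 2. Without Abca4KO 1, B2m (0.08) and H2-D1 (0.22) turned as well.

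Same-numbered WT and Abca4KO libraries deviated together with correlations of 0.167, 0.344 and -0.076 (numbers 1, 2 and 3), and the labels do not tie the numbers to a shared litter or day, so the numbers were not taken to pair the mice. With the number as a replicate block 9 genes and 0 members passed. Of the 36 members only 19 were positive in that fit, with a median log2 fold change of 0.018. The medians were 0.28 in class I and 0.033 in class II. Among the named genes, values turned to 0.24 for B2m, 0.14 for H2-K1, 0.48 for H2-D1, 0.43 for H2-Q4, 0.96 for H2-Q6, 0.49 for H2-Q7, 0.26 for H2-Aa, 0.047 for H2-Ab1, 0.23 for H2-Eb1, 0.015 for H2-DMa and 0.28 for Cd74.

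Under each of the size factors tried, 3 of the 36 members were positive. Depth limits the 7 sparsely counted members, and H2-M2 in WT 1 and WT 3. With 3 mice per group and 1 WT mouse apart, the SE of the log2 fold change was above 1 in members of all 3 classes. Among these were Cd74, H2-Aa, H2-Ab1 and H2-Eb1 in class II and H2-M2 (1.44) and H2-Q6 (1.30) in class I. Tap1 (1.27) and Nlrc5 (1.18) were such accessory genes. Differences of that size were not detectable in them. The lowest SE of a member was 0.13, in H2-M5.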

Other observations

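Class I-like molecules encoded outside the H2 genes varied in how far they shared the WT 2 pattern. Of 16 symbols listed, 12 were in the table and 7 were tested, with 0 past edgeR's threshold, 0 at an unadjusted p under 0.05 and a median log2 fold change of -0.04. WT 2 was highest in 4 of the 7, and the median gene had 2.01 times the mean of the other 5 libraries there, with 3.82 times in H60b, 2.41 in Cd1d1, 2.11 in Procr and 2.01 in Ulbp1, all sparse or low, and 0.915 to 1.04 times in the more abundant Fcgrt, Hfe and Mr1. Fcgrt, the neonatal Fc receptor, held 83.9, 88.5 and 69.1 CPM in WT 1, 2 and 3 and 87.0, 98.6 and 95.3 CPM in Abca4KO 1, 2 and 3. Mr1, which presents vitamin metabolites to mucosal T cells, held 98.5, 89.3 and 105 CPM in WT and 98.0, 92.9 and 93.3 CPM in Abca4KO. Hfe, which regulates iron uptake, held 47.5 to 55.5 CPM in WT and 53.0 to 60.2 CPM in Abca4KO. These 3 pair with B2m, whose own level in WT 2 was 2.95 times the mean of the other 5 libraries.

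Of the costimulatory genes, chosen here after their values were seen, Cd86, Cd40 and Cd80 were sparse. Cd86 held 19.2 CPM in WT 2 and 2.18 to 6.61 CPM elsewhere, Cd40 held 6.55 and 0.609 to 1.19 CPM, and Cd80 held 5.26 and 1.09 to 3.72 CPM. Cd83, listed with them, was less sparse. It held 23.7 CPM in WT 2 and 9.09 to 17.5 CPM elsewhere, and WT 2 was 1.98 times the mean of the other 5 libraries.

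The 15 endothelial markers were all tested, with 0 past edgeR's threshold. At an unadjusted p under 0.05, 9 were higher in Abca4KO, against 546 of the 17340 genes tested. Each marker was highest in Abca4KO 3, as were 2292 of all genes tested. The markers summed to 475 to 785 CPM in WT and 779 to 1152 CPM in Abca4KO. The 10 B cell markers summed to 33.0 to 92.8 CPM in WT and 44.5 to 86.8 CPM in Abca4KO. Their part in the levels of the members was not tested.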
